A study of Mus musculus with 4 samples.

Results

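The 10 mouse genes Rab5if, Scand1, Glrx5, Eif3f, Pdcd2, Sap30, Rala, Gal3st3, Taf10 and Rab24, of 32285 genes in the count matrices, were chosen by their counts, as genes that were higher in both libraries labelled Fosl2cKO in the summed counts of granulosa cells and often of stromal cells. Those sums chose the genes, so the granulosa-like and stromal-like values are given here as a description without a test. The immune-like, vascular-like and other classes were not named by that choice, and they are tested below. Their cells came from the same 4 libraries and animals, and the genes were chosen with earlier results of these data known. The tests are therefore no independent check of the members. The question is whether the difference between libraries was limited to granulosa cells, in which the Cre acts, or was present in every cell type of the ovary.

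Whole ovaries were profiled by droplet-based single-cell RNA sequencing with a 3′ kit. There were 2 libraries from Fosl2F/F (Fosl2flox/flox) mice, titled Ctrl, and 2 from Fosl2cKO (Cyp19a1-Cre; Fosl2flox/flox) mice, all from females 8 weeks old, and both groups carried the floxed Fosl2 allele. The Cre line is driven by Cyp19a1, the aromatase gene, which is active in granulosa cells and in luteal cells derived from them, and the control animals are not stated to carry it. The mice were littermates, and the study counts as many animals as libraries in each group, so that a library stands for 1 animal and is the unit of replication.

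Fosl2 encodes a member of the AP-1 family of transcription factors, which bind DNA as dimers with Jun proteins. The 10 genes belong to different pathways. Most act in tasks that nearly every cell performs, such as starting translation, assembling ribosomes, forming the general transcription machinery, moving vesicles and making iron-sulfur clusters in mitochondria, so UMIs (unique molecular identifiers, each standing for 1 captured transcript) can be counted for them in granulosa, vascular and immune cells alike.

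The 4 matrices held 8654 to 28155 barcodes and 120327227 to 148836173 UMIs. After filters on genes, UMIs, mitochondrial share, hemoglobin share and doublets, 41538 cells remained, 6760 to 19575 per library. The second Fosl2F/F library stood apart, with the most cells and a median of 3655 UMIs per cell against 11177 to 12465 in the others, so the immune-like and vascular-like values were also fitted without it. Libraries shared 15 to 81 barcodes pair by pair. Clusters were given names from fixed marker lists, and 11 classes had at least 20 cells in every library. Immune-like cells (macrophage-like, NK or T-like and B lymphocyte-like) numbered 504 to 1029 per library with 2555159 to 5585790 UMIs, and vascular-like cells (endothelial-like, lymphatic endothelial-like and pericyte or smooth muscle-like) 552 to 1878 with 3797361 to 8511490 UMIs. In granulosa-like cells the targeted gene Fosl2 was at 167, 164, 163 and 116 CPM (UMIs of a gene relative to the total of its sum, scaled by TMM factors) in Fosl2F/F 1, Fosl2F/F 2, Fosl2cKO 1 and Fosl2cKO 2. Its log2 fold change was -0.25, with an adjusted p of 1.0 by edgeR's quasi-likelihood test (Benjamini-Hochberg adjusted), so the groups did not overlap, but their difference did not pass the test. The paper places the LoxP sites around coding sequence of Fosl2. It is not clear from the sources used here whether the 3′ end that these tags read lies within that floxed part. The counts therefore do not check the genotypes, and the groups are named by their labels. The paper reports depletion of Fosl2 protein in granulosa cells of Fosl2cKO mice by immunoblot, which RNA counts do not measure.

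Sequence before the start site could be read for 8 of the 10 genes in RefSeq's promoter table (GRCm38.p6). It is shown for 4 genes whose levels the results turn on, as the 250 bases before the start, 5′ to 3′ on the strand of the gene, with every CpG in capitals. The windows are chr2:156862872-156863121 on the plus strand for Rab5if, chr2:156312705-156312954 on the minus strand for Scand1, chr7:108934165-108934414 on the plus strand for Eif3f and chr7:105744339-105744588 on the minus strand for Taf10.
Rab5if: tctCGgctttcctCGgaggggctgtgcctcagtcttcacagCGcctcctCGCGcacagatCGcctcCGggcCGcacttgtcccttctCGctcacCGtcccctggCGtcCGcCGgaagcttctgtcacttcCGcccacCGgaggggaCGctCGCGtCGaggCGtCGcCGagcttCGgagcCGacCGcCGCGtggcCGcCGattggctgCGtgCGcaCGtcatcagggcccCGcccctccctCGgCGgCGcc
Scand1: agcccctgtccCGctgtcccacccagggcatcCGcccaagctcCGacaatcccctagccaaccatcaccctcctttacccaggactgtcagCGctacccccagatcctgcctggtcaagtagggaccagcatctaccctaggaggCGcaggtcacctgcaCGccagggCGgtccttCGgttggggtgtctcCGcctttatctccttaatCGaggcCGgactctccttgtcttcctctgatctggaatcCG
Eif3f: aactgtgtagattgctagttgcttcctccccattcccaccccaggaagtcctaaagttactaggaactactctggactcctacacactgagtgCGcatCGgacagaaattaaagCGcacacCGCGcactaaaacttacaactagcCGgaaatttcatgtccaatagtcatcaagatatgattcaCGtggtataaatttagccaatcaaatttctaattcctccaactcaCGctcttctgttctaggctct
Taf10: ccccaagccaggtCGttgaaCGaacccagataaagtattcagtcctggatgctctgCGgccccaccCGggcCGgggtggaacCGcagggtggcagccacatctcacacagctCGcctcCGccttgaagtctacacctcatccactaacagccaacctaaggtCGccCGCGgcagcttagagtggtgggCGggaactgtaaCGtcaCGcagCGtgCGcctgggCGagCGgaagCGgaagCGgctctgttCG
These windows held 36 CpGs for Rab5if, 12 for Scand1, 8 for Eif3f and 21 for Taf10. Over the full 300 bases of the table, which run 50 bases past the start, the 8 genes had 12 to 41 CpGs with a median of 25.5, against 7 over 32851 promoters and 21 over the 9059 promoters of genes tested in immune-like cells. The AP-1 motif, written TGAGTCA or TGACTCA and read on both strands, occurred in 0 of the 8, in 5.20% of all promoters and in 3.47% of the promoters of genes tested in immune-like cells. The CRE motif, TGAC followed directly by GTCA and also read on both strands, occurred in 0 of the 8 and in 1.79% of all promoters. These counts describe the letters in these windows and say nothing of binding elsewhere.

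In immune-like cells, all 10 genes were higher in both libraries labelled Fosl2cKO than in both Fosl2F/F libraries, a pattern that 18.7% of the 11490 genes tested there showed. Of the 10, 9 passed the filter on low counts, and 8 of them, all but Pdcd2, reached its cutoff in both Fosl2F/F libraries too, so that they did not pass only through the libraries in which they were high. Rab5if, Scand1 and Eif3f passed the test of edgeR's quasi-likelihood fit, Benjamini-Hochberg adjusted p under 0.1 and log2 fold change over 0.25, where 0.113% of genes passed as higher. By edgeR, 0 members passed in cells over 2000 UMIs, at an adjusted p under 0.05, or with doublets kept and Leiden clusters, where 0%, 0.0174% and 0.00744% of all genes were higher. All 8 had an unadjusted p under 0.05 in each, where 3.52%, 3.54% and 4.26% of all genes were higher at that unadjusted p. The median log2 fold change of the 8 was 1.78, against -0.0076 over all genes tested. Without the second Fosl2F/F library the log2 fold changes ran from 1.46 (Rala) to 2.88 (Taf10). In vascular-like cells, 10 of 10 were higher in both libraries labelled Fosl2cKO, with 13.3% of 13808 genes showing this pattern, and the 9 that reached the cutoff in both Fosl2F/F libraries, all but Gal3st3, had a median log2 fold change of 1.75 against 0.0021. There 0 of these 9 passed edgeR's test, as did 0% of all genes in this direction. All 9 had an unadjusted p under 0.05, against 2.32% of all genes as higher, and 4 passed with DESeq2, which called 0.225% of genes higher. Without the second Fosl2F/F library their values ran from 1.01 (Rala) to 3.51 (Taf10), with Scand1 at 2.90. DESeq2 called 7 of the 8 in immune-like cells, against 0.348% of genes.

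**Figure D1:**
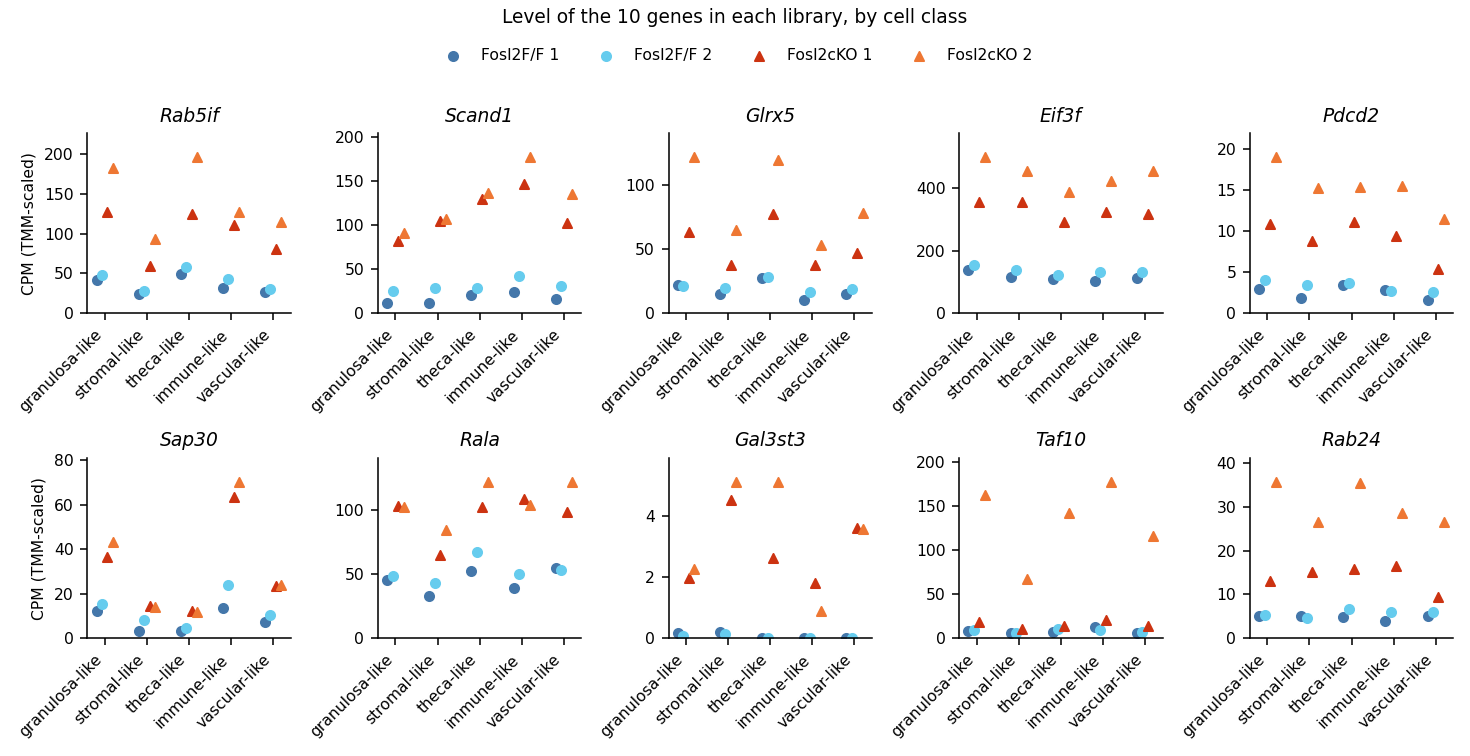
Level of each gene in CPM (linear axis from 0) in granulosa-like, stromal-like, theca-like, immune-like and vascular-like cells. Circles are the 2 Fosl2F/F libraries and triangles the 2 libraries labelled Fosl2cKO. In every panel and class the triangles lie above the circles, and for Taf10 the second Fosl2cKO library lies far above the first (162.8 against 18.0 CPM in granulosa-like cells).

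Eif3f and Pdcd2 act in protein synthesis. Eif3f (ENSMUSG00000031029, chr7:108934417-108942951, plus strand, GRCm38) encodes a subunit of eIF3, the complex that helps load the small ribosomal subunit onto mRNA. The Fosl2F/F libraries had 137.0 and 154.7 CPM of it in granulosa-like cells, and those labelled Fosl2cKO 355.9 and 500.8 CPM. Immune-like cells had 103.9 and 131.6 against 323.2 and 423.4 CPM, a log2 fold change of 1.66 (SE 0.25, adjusted p = 0.0879 by edgeR's quasi-likelihood test, Benjamini-Hochberg adjusted), and vascular-like cells 113.3 and 131.4 against 317.4 and 455.9 CPM, a log2 fold change of 1.66 (SE 0.26, adjusted p = 0.226). The groups did not overlap in any of these sums, and the second library of each pair was the higher. Pdcd2 (ENSMUSG00000014771, chr17:15519208-15527301, minus strand) encodes a protein that helps carry a protein of the small ribosomal subunit into the ribosome. It was a low gene, at 2.88 and 2.75 against 9.37 and 15.5 CPM in immune-like cells (8, 7, 52 and 53 UMIs) and at 1.62 and 2.58 against 5.41 and 11.5 CPM in vascular-like cells. Its log2 fold changes of 2.11 (SE 0.44, adjusted p = 0.246) and 1.93 (SE 0.51, adjusted p = 0.814) did not pass edgeR's test, and the vascular-like value of Pdcd2 was 1.30 without the second Fosl2cKO library. The groups did not overlap in either sum, nor in granulosa-like cells, where the 4 libraries were at 2.97, 4.08, 10.9 and 19.0 CPM.

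Scand1, Sap30 and Taf10 act in transcription or on chromatin. Scand1 (ENSMUSG00000046229, chr2:156311847-156312704, minus strand) encodes a short protein with a SCAN domain, a dimerization module of zinc finger proteins, and lacks zinc fingers itself. Immune-like cells held it at 24.4 and 42.4 against 145.9 and 177.4 CPM, with a log2 fold change of 2.28 (SE 0.30, adjusted p = 0.0596 by edgeR's quasi-likelihood test, Benjamini-Hochberg adjusted). Vascular-like cells held it at 15.9 and 31.2 against 102.6 and 134.7 CPM (log2 fold change 2.30, SE 0.34, adjusted p = 0.226). The second Fosl2F/F library was higher than the first by at least 1.38-fold in the 7 classes with enough UMIs for the ratio, but remained below both libraries labelled Fosl2cKO. Sap30 (ENSMUSG00000031609, chr8:57482707-57487860, minus strand) encodes a subunit of the Sin3 histone deacetylase complex, which represses transcription. It was at 13.7 and 24.0 against 63.6 and 70.3 CPM in immune-like cells (log2 fold change 1.83, SE 0.29, adjusted p = 0.102) and at 7.28 and 10.3 against 23.5 and 23.9 CPM in vascular-like cells (1.40, SE 0.29, adjusted p = 0.603). Its immune-like value lay just outside the threshold of 0.1.

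Taf10 (ENSMUSG00000043866, chr7:105739393-105744361, minus strand) encodes a subunit shared by TFIID and SAGA, complexes that act at promoters in transcription initiation. The level in granulosa-like cells was 7.98 and 9.57 CPM for Fosl2F/F against 18.0 and 162.8 CPM for Fosl2cKO. Immune-like cells had 13.3, 9.43, 20.7 and 178 CPM, and vascular-like cells 5.66, 6.79, 13.9 and 116.1 CPM, in the same order. The second library labelled Fosl2cKO was therefore far above the other 3, with the first above both Fosl2F/F libraries by a smaller margin. The log2 fold changes of 3.10 (SE 0.84) and 3.35 (SE 0.85) had adjusted p values of 0.467 and 0.764 by edgeR's quasi-likelihood test. Without the second Fosl2cKO library they were 0.86 in immune-like cells, 1.14 in vascular-like cells, 1.04 in granulosa-like cells and 0.81 in stromal-like cells.

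Rab5if, Rala and Rab24 relate to membrane traffic. Rab5if (ENSMUSG00000027637, chr2:156863128-156873563, plus strand) encodes a small membrane protein named for its interaction with Rab5, a GTPase of early endosomes. It was at 41.2 and 47.4 against 126.5 and 181.9 CPM in granulosa-like cells. The difference was of like size in immune-like cells, at 31.6 and 42.4 against 110.8 and 126.5 CPM (log2 fold change 1.68, SE 0.24, adjusted p = 0.085 by edgeR's quasi-likelihood test, Benjamini-Hochberg adjusted), and in vascular-like cells, at 26.7 and 31.0 against 80.8 and 113.9 CPM (1.75, SE 0.26, adjusted p = 0.226). Rala (ENSMUSG00000008859, chr13:17880571-17944239, minus strand) encodes a Ras-like GTPase that acts through the exocyst, a complex that tethers vesicles to the plasma membrane. It had the smallest log2 fold change of the 10 in both sums, 1.26 (SE 0.23, adjusted p = 0.166) in immune-like and 1.02 (SE 0.22, adjusted p = 0.648) in vascular-like cells. Its libraries were tight within each group, at 38.8 and 49.9 against 108.4 and 104.2 CPM in immune-like cells and at 55.0 and 53.5 against 98.7 and 122 CPM in vascular-like cells. Rab24 (ENSMUSG00000034789, chr13:55319743-55321946, minus strand) encodes a Rab GTPase linked to autophagy. At 3.95 and 5.89 against 16.4 and 28.7 CPM in immune-like cells (2.18, SE 0.40, adjusted p = 0.168) and at 5.13 and 5.97 against 9.44 and 26.6 CPM in vascular-like cells (1.67, SE 0.49, adjusted p = 0.960), its groups did not overlap in either sum. Without the second Fosl2cKO library the vascular-like log2 fold change of Rab24 was 0.75, and the immune-like one 1.74.

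Glrx5 and Gal3st3 are enzymes or cofactors of organelles. Glrx5 (ENSMUSG00000021102, chr12:105032688-105042906, plus strand) encodes the mitochondrial glutaredoxin that passes on newly made iron-sulfur clusters. Its levels were 21.8, 21.6, 63.6 and 121.8 CPM in granulosa-like cells. In immune-like cells they were 10.4, 16.9, 37.8 and 53.3 CPM (log2 fold change 1.74, SE 0.31, adjusted p = 0.166 by edgeR's quasi-likelihood test) and in vascular-like cells 15.1, 18.5, 46.9 and 78.1 CPM (1.88, SE 0.30, adjusted p = 0.226). Both libraries labelled Fosl2cKO were above both Fosl2F/F libraries in each. Gal3st3 (ENSMUSG00000047658, chr19:5298331-5308738, plus strand) encodes a Golgi enzyme that adds sulfate to galactose on glycans. It was nearly undetected in the Fosl2F/F libraries, with 12 and 3 UMIs in granulosa-like cells against 100 and 108 in the libraries labelled Fosl2cKO (0.174, 0.0766, 1.95 and 2.25 CPM). Immune-like cells had 0, 0, 10 and 3 UMIs and vascular-like cells 0, 0, 26 and 21. The limit that a count of 0 allows was set at 3 UMIs over both Fosl2F/F libraries. The pooled level in the libraries labelled Fosl2cKO was 2.65-fold that limit in immune-like and 14.8-fold in vascular-like cells. This allows for counting error in the Fosl2F/F libraries only and takes the Fosl2cKO counts as observed.

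Over the 9 single classes other than granulosa-like and stromal-like, 82 of the 90 pairs of gene and class had both libraries labelled Fosl2cKO above both Fosl2F/F libraries, 0 had them below, and 8 overlapped. Of the 72 pairs that passed the low-count filter, 71 had this pattern, and 55 reached its cutoff in both Fosl2F/F libraries too. The share of all tested genes with this pattern was 22.5% in luteal-like, 21.4% in B lymphocyte-like, 20.7% in NK or T-like, 17.6% in macrophage-like, 16.2% in lymphatic endothelial-like, 15.3% in theca-like, 14.1% in pericyte or smooth muscle-like, 14% in endothelial-like and 12.8% in epithelial-like cells. The pairs that overlapped were Rab5if, Pdcd2, Sap30, Gal3st3 and Taf10 in B lymphocyte-like cells, Pdcd2 and Sap30 in lymphatic endothelial-like cells, and Sap30 in NK or T-like cells. B lymphocyte-like cells were the smallest class, with 27 to 49 cells in each library and between 39928 and 116743 UMIs, and of the genes that overlapped there each had between 0 and 14 UMIs per library. In the 7 of these classes with at least 100 cells in every library, 69 of 70 pairs did not overlap, the exception being Sap30 in NK or T-like cells at 10.4, 33.4, 43.8 and 30.8 CPM. Of these 70 pairs, 52 reached the low-count cutoff in both Fosl2F/F libraries, all of them higher in both libraries labelled Fosl2cKO.

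**Figure D2:**
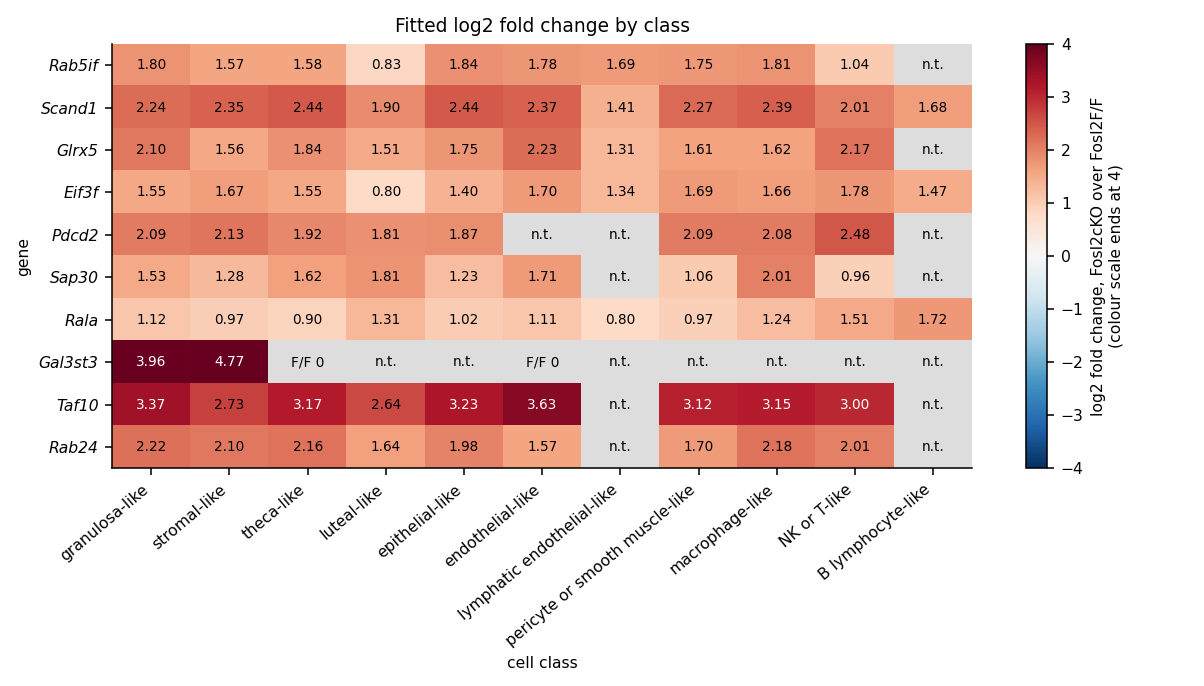
Fitted log2 fold change (Fosl2cKO over Fosl2F/F) of each gene in each of the 11 classes. Cells marked n.t. were below the filter on low counts, and those marked F/F 0 had no UMI in either Fosl2F/F library, so that no fold is shown. The values shown are all above 0, from 0.80 to 4.77, and Taf10 stands at 2.64 to 3.63 in the classes where it was tested.

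The granulosa-like and stromal-like sums, which chose the genes, had all 10 higher in both libraries labelled Fosl2cKO, with 15.8% of genes in granulosa-like and 13.6% in stromal-like cells showing this pattern, and over the 9 members other than Gal3st3 their medians were 2.09 and 1.67. In the other single classes the counts that follow take in the members that reached the low-count cutoff in both Fosl2F/F libraries, whose medians ran from 1.07 in lymphatic endothelial-like cells (2 members) to 1.91 in macrophage-like cells (8 members). Endothelial-like cells, which line blood vessels, had the most genes past edgeR's quasi-likelihood test (Benjamini-Hochberg adjusted), 6 of 7 (Rab5if, Scand1, Glrx5, Eif3f, Sap30 and Taf10), where 0.177% of genes passed as higher. Taf10 was at 7.86 and 5.51 CPM there in the Fosl2F/F libraries against 16.8 and 137.6 CPM, so its value rests largely on the second Fosl2cKO library. Macrophage-like cells had 4 of 8 (Rab5if, Scand1, Eif3f and Sap30), against 0.212%, and NK or T-like cells 3 of 4 (Scand1, Eif3f and Rala), against 0.368%. Pericyte or smooth muscle-like cells had 3 of 8 (Rab5if, Scand1 and Eif3f), against 0.0571%. Theca-like cells, the androgen-producing cells around the follicle, had 1 of 9 (Scand1, against 0.0397%) and epithelial-like cells 1 of 7 (Scand1, against 0.0802%). Luteal-like cells had 0 of 9 (against 0.0078%), with 9 at an unadjusted p under 0.05 (against 5.21% of genes as higher) and 6 with DESeq2 (against 1.57%). Lymphatic endothelial-like cells had 0 of 2 (1 unadjusted, against 3.04%, and 0 with DESeq2, against 0.0317%). B lymphocyte-like cells had 0 of 1 (1 unadjusted, against 4.68%, and 0 with DESeq2). By edgeR 0% of genes passed as higher in each of these 2 classes. DESeq2 called 7 members in macrophage-like (against 0.28%), 5 in theca-like (0.19%), 5 in endothelial-like (0.222%), 4 in pericyte or smooth muscle-like (0.147%), 3 in epithelial-like (0.107%) and 2 in NK or T-like cells (0.102%).

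The smallest fitted changes of Rab5if and Eif3f were in luteal-like cells. Rab5if was at 56.4 and 93.8 against 134.6 and 133.3 CPM there (log2 fold change 0.83), and Eif3f at 139.4 ± 13.2 (SD, n = 2) against 207.9 and 278.4 CPM (0.80). Both genes thus kept their order in this class. The luteal-like class was made of different clusters in the libraries, and the one led by Akr1c18 and Ptgfr held 111 of 174 and 342 of 1243 of its cells in the Fosl2F/F libraries against 15 of 332 and 32 of 291 in those labelled Fosl2cKO. The part of this in the luteal-like values was not tested. Sap30 had its highest mean in the libraries labelled Fosl2cKO in macrophage-like cells, 77.2 CPM, and its lowest in lymphatic endothelial-like cells, 9.89 CPM. Eif3f had class means of 243.2 to 504.1 CPM in those libraries and of 108.1 to 189.0 CPM in the Fosl2F/F libraries.

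The shift was compared directly between vascular-like and immune-like cells, by the interaction of class and genotype with the library as a block. These cells differ in lineage and were not named by the choice of the genes. They came from the same libraries, and earlier results of these data were known, so the comparison is no independent check of the members. Over the 8 genes that reached the low-count cutoff in the Fosl2F/F libraries of both sums, the difference in log2 fold change (vascular-like minus immune-like) was between -0.63 and 0.19, the smallest unadjusted p was 0.179, and 0 of 14367 genes passed edgeR's quasi-likelihood test (Benjamini-Hochberg adjusted), with 462 at an unadjusted p under 0.05. For Eif3f the difference was -0.05 with a 95% interval of -0.56 to 0.45, for Rab5if 0.02 (-0.52 to 0.56) and for Scand1 0.03 (-0.47 to 0.54). The interval of these 8 was widest for Rab24, a difference of -0.63 (-1.65 to 0.40). Of the 10718 genes tested in both sums, 64 (0.597%) had a log2 fold change over 1 in both, and they included these 8 members.

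**Figure D3:**
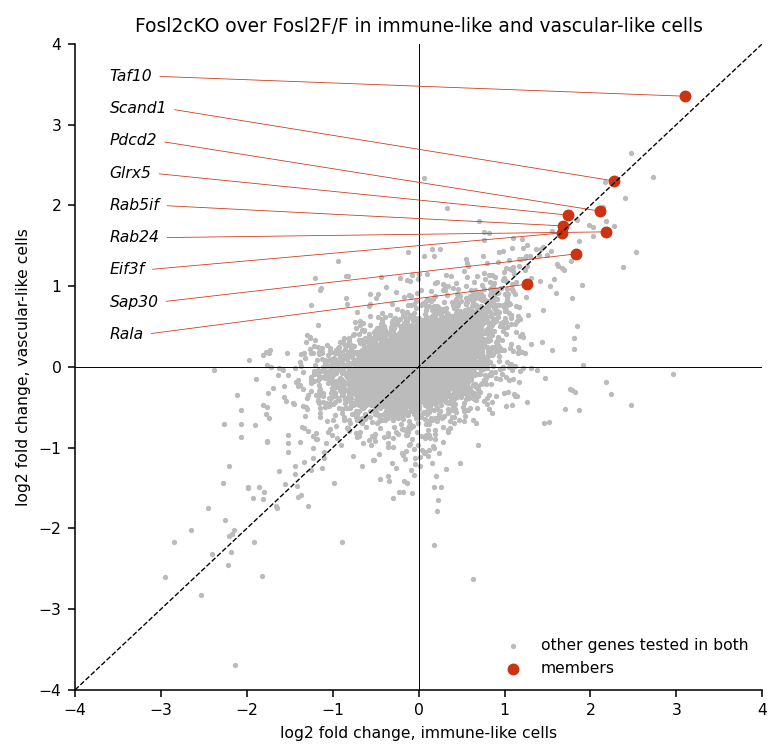
Log2 fold change (Fosl2cKO over Fosl2F/F) in immune-like cells (x axis) and vascular-like cells (y axis), 1 point per gene tested in both, with the dashed line marking equal values. The 9 named genes, in red, lie along that line in the upper right, from Rala (1.26 and 1.02) to Taf10 (3.10 and 3.35).

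The 2 libraries labelled Fosl2cKO differed from each other by amounts that varied between genes and recurred over the classes. In the classes with at least 20 UMIs in both, the level in the second over the first was 6.56 to 10.4 for Taf10, 1.77 to 3.39 for Rab24, 1.25 to 2.92 for Glrx5 and 1.38 to 1.97 for Pdcd2. It was 1.04 to 1.43 for Eif3f, 0.991 to 1.99 for Rab5if, 0.973 to 1.40 for Scand1, 0.80 to 1.31 for Rala and 0.704 to 1.30 for Sap30. Taf10 was the only 1 of 7059 genes whose ratio was over 4 in each of the 9 classes with at least 100 cells per library. In no class with enough UMIs did the first library exceed the second for Taf10, Rab24, Glrx5, Pdcd2 or Eif3f.

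**Figure D4:**
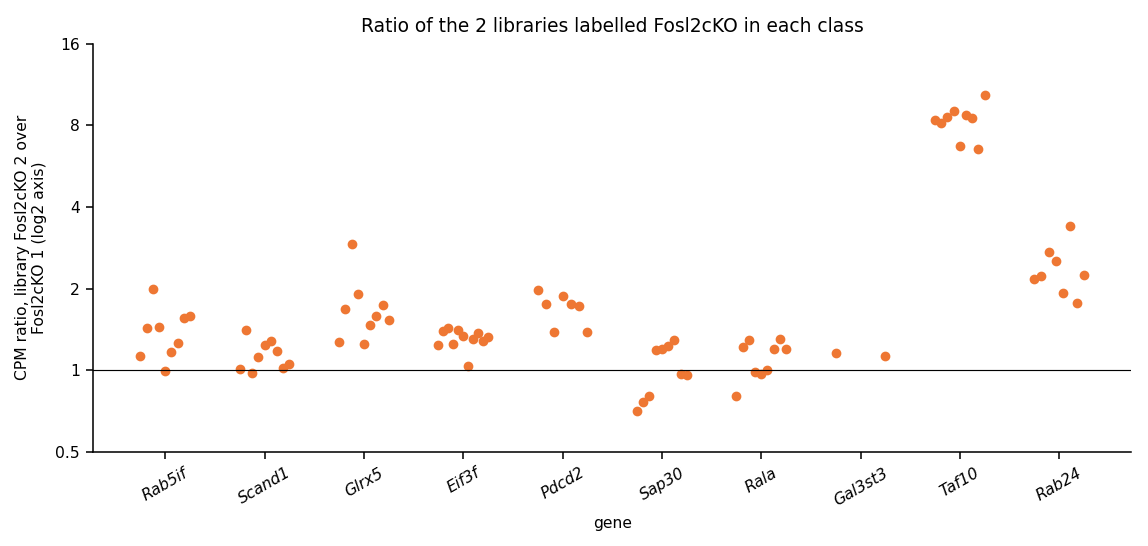
Level in the second library labelled Fosl2cKO over that in the first (log2 axis), 1 point per class with at least 20 UMIs in both libraries. Taf10 lies at 6.56 to 10.4 in every class, while Eif3f, Scand1, Rala and Sap30 stay between 0.704 and 1.43.

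Free RNA from granulosa cells can add UMIs to other cells in a droplet assay, so the level of granulosa markers was set beside these values. The summed level of 12 granulosa markers in immune-like cells was 5.84%, 4.87%, 2.99% and 2.53% of their level in granulosa-like cells in Fosl2F/F 1, Fosl2F/F 2, Fosl2cKO 1 and Fosl2cKO 2, with 0 of the 12 at 0 in all libraries. In vascular-like cells it was 6.19%, 5.95%, 5.17% and 4.01%. The members other than Gal3st3 were at 43.8% to 205% of their granulosa-like level in immune-like cells and at 49.8% to 148% in vascular-like cells, and the summed granulosa markers were lower in both libraries labelled Fosl2cKO than in both Fosl2F/F libraries in each sum. The part of free granulosa RNA in the members' differences was not tested. Plb1, a phospholipase gene next to Fosl2 that is named here after its values were seen, was at 0.102 and 0.0510 against 464.3 and 245.9 CPM in granulosa-like cells, and its level in immune-like cells was 5.66% and 7.15% of that in the libraries labelled Fosl2cKO. Immune-like cells had 0 and 1 against 146 and 60 UMIs of Plb1. It passed edgeR's quasi-likelihood test there (log2 fold change 6.64, adjusted p = 0.0165), as did 0.113% of genes as higher. Stromal markers, of cells whose sums also chose the genes, were at 1.12% to 2.13% of their stromal-like level in immune-like cells but at 26.1% to 34.8% in vascular-like cells, where pericyte or smooth muscle-like cells contribute, and the part of this in the vascular-like result was not tested.

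The genes lie on 7 chromosomes, and Rab5if and Scand1, 550.4 kb apart on chromosome 2, are the closest pair, followed by Eif3f and Taf10 at 3190.1 kb on chromosome 7. Few neighbouring genes had a difference of that size. Of the 112 genes tested in immune-like cells whose start lay within 500 kb of a member, 0 passed edgeR's quasi-likelihood test, in which 0.113% of all genes passed as higher, the median log2 fold change was 0.00, and 0.893% had a log2 fold change over 1, against 1.65% of all genes. In vascular-like cells 0 of 131 passed, as did 0% of all genes as higher, and 2.29% exceeded 1 against 1.64%. Those over 1 were Ric3 (1.55) and Lmo1 (1.11) near Eif3f and AW046200 (1.24) near Sap30. Tcl1, near Glrx5, had -1.77 in these cells. Among the nearest genes, log2 fold changes in immune-like cells were -0.43 for 5430405H02Rik, 0.2 kb before the start of Rab5if, and 0.41 for Cnbd2, 0.4 kb from the start of Scand1. Tpp1 and Rrp8, which flank Taf10, had 0.58 and 0.00. Sf3b2, 2.9 kb from Gal3st3, had 0.47, and Yae1d1 and Cdk13, beside Rala, had 0.07 and 0.07. None of these passed the test, with adjusted p values of 0.710 to 1.0 by edgeR. Other genes near Gal3st3, named here after their values were seen, had higher values in immune-like cells, at 0.90 for Pacs1 (25.2 kb away), 0.94 for Sart1 (90.4 kb), 0.89 for Drap1 (126.6 kb) and 1.18 for AI837181 (126.8 kb). In vascular-like cells these 4 genes had 0.95, 0.68, 0.59 and 0.59, and in granulosa-like cells 0.90, 0.78, 0.76 and 0.76. Near Rab24, Prr7 and Pcbd2 had 0.92 and 0.81 in immune-like cells. These genes did not pass the test in immune-like cells either, with adjusted p values between 0.421 and 0.794 by edgeR's quasi-likelihood test. Nnt, whose internal deletion is carried by the C57BL/6J strain of the Cre line, was at 5.52, 6.0, 7.43 and 5.84 CPM in granulosa-like cells. Tags outside that deletion do not read it, and genotype, library and any difference in strain background cannot be told apart with these 4 libraries.

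**Figure D5:**
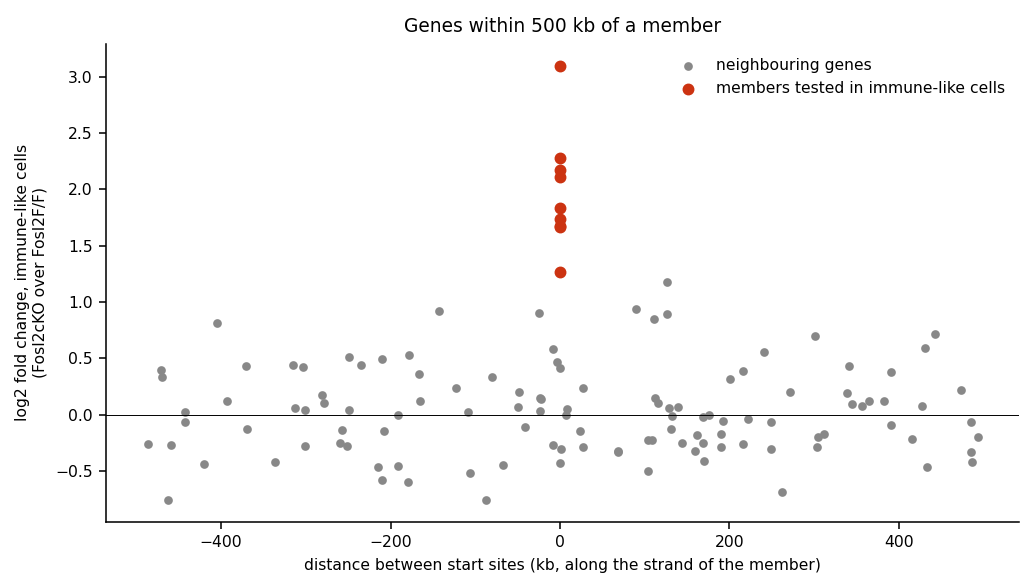
Log2 fold change in immune-like cells (Fosl2cKO over Fosl2F/F) of genes within 500 kb of a member (grey), by the distance between start sites in kb along the strand of the member, with the 9 tested members in red at 0. The neighbours lie between -0.76 and 1.18 with a median of 0.00, whereas the members lie between 1.26 and 3.10.

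Overlap with a gene on the opposite strand was common among the 10. Such a partner was annotated for 7 of them, against 37.1% of the genes tested in immune-like cells, and whether the counting used strand is not given in the sources used here. In most cases the partners did not rise with the member. Gm48754, which overlaps Rala, had at most 2 UMIs per library in granulosa-like, immune-like and vascular-like cells, too few to judge. Ilk, which overlaps Taf10 by 3533 bases, was at 48.9, 55.4, 55.3 and 52.4 CPM in immune-like cells, in which Taf10 was at 13.3, 9.43, 20.7 and 178 CPM. Tbp, which spans all of Pdcd2, was at 5.75, 12.2, 10.3 and 10.8 CPM, and Prelid1, which overlaps Rab24, at 188.7, 126.9, 137.3 and 118.0 CPM. Ilk and Prelid1 were lower in both libraries labelled Fosl2cKO in granulosa-like cells, Ilk at 49.8 and 41.2 against 40.5 and 37.8 CPM. In vascular-like cells Ilk was lower too, at 97.4 and 96.0 against 86.1 and 80.5 CPM, while Prelid1 overlapped between the groups. Cnbd2, which overlaps Scand1, was higher in both libraries labelled Fosl2cKO in immune-like cells, at 8.27 and 9.04 against 11.4 and 11.7 CPM, but overlapped between the groups in granulosa-like and vascular-like cells. Gm42064, an antisense gene that overlaps Gal3st3, was higher in both of those libraries in all 3 sums, at 0.204 and 0.204 against 0.741 and 1.06 CPM in granulosa-like cells. If strand was not used, reads of Gal3st3 and of Gm42064 cannot be told apart.

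The members varied in length and base composition. Their median transcript length was 2212 bases against 3374 over genes tested in immune-like cells, and their median GC content 51.7% against 49.1%, with Scand1 highest at 68.4% and Gal3st3 at 58.8%. Taf10, at 4281 bases, was longer than that median of tested genes. Split into 5 bins of GC content, the genes tested in immune-like cells had a log2 fold change over 1 in 0.826% of the lowest bin and in 2.79% of the highest. From the lowest bin to the highest, the bins held 0, 1, 4, 2 and 2 of the members. Scand1 in the vascular-like minus immune-like comparison aside, removing a GC trend left the direction of every member as it was.

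The other genes of the complexes and pathways in which the members act were taken from fixed lists. Over 10 lists of partner genes, 0 of 119 distinct genes other than the members passed edgeR's quasi-likelihood test (Benjamini-Hochberg adjusted) in immune-like cells and 0 of 126 in vascular-like cells, where 0.113% and 0% of all genes passed as higher, so that these counts do not set the partners apart from other genes. The 12 other eIF3 subunits tested had a median log2 fold change of -0.34 in immune-like cells, from -0.46 (Eif3e) to 0.14 (Eif3b), whereas Eif3f had 1.66. Partners of Taf10 in TFIID had a median of 0.11 over 14 genes and those in SAGA 0.02 over 17 genes. The Sin3 complex, in which Sap30 acts, had a median of 0.01 over 16 genes, and iron-sulfur cluster assembly, in which Glrx5 acts, -0.15 over 15 genes. Ral and exocyst genes had 0.10 over 17 and the Rab5 and autophagy Rabs 0.25 over 13, with Rab5b highest at 0.70. SCAN domain genes had 0.07 over 8 and the list around Pdcd2 -0.16 over 8, and of the galactose sulfotransferases other than Gal3st3 0 of 3 were tested. The medians in vascular-like cells were between -0.14 and 0.08.

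Some genes outside the list had profiles much like that of the members over 44 points, which are 11 classes in each of 4 libraries and share those libraries and their depth. Of 1661 genes at 20 CPM or more that were tested in every class, the correlation of the centered log2 level with the mean of the members had a median of 0.108 and was over 0.9 for 3 genes, Bri3 (0.963), Anp32b (0.933) and Sh3glb1 (0.914). They were followed by Chic2 (0.899), Tmed2 (0.883), Gnas (0.880), Ier5 (0.875), Ppp1cc (0.867), Rap1b (0.857) and Elavl1 (0.851). Bri3 was at 62.0 and 77.0 against 141.2 and 281.9 CPM over all cells kept, and its log2 fold changes of 2.03 in immune-like and 1.62 in vascular-like cells did not pass edgeR's test (adjusted p = 0.166 and 0.714). Ier5, an immediate early gene, was at 14.1 and 14.4 against 35.0 and 69.6 CPM.

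In the 9 classes other than granulosa-like and stromal-like, 1675 genes were tested in every class, of which 10 (0.597%) were higher in both libraries labelled Fosl2cKO in each and 12 were lower. Scand1, Eif3f and Rala were among the 10, although Scand1 and Rala passed the low-count filter in B lymphocyte-like cells, and Scand1 in lymphatic endothelial-like cells, only through the libraries labelled Fosl2cKO. Beside them were Bri3, Btg1, Ier5, Pacs1, Rab5a, Rnf10 and Zfp36l2. Rab5a encodes the GTPase after which Rab5if is named. In the 7 of those classes with at least 100 cells per library, 7059 genes were tested in every class, of which 75 (1.06%) were higher in each and 25 were lower. The 75 included Rab5if, Scand1, Glrx5, Eif3f, Rala, Taf10 and Rab24, of 8 members tested, although Glrx5, Taf10 and Rab24 passed the low-count filter in NK or T-like cells, and Rab24 in endothelial-like and epithelial-like cells, only through the libraries labelled Fosl2cKO. They also included Pacs1, Sart1, Drap1 and Sf3b2, the genes near Gal3st3 named above.

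The calls rested on 2 libraries a group, for which an exact two-sided permutation test of a single value cannot go below p = 0.333. In immune-like cells the log2 fold changes with 1 library left out ran from 0.86 to 3.96, both for Taf10. Rab5if was at 1.49 to 1.91, Scand1 at 1.94 to 2.73 and Eif3f at 1.46 to 1.85. In vascular-like cells those of the members other than Gal3st3 ran from 0.75 (Rab24) to 4.2 (Taf10). In each of these fits 1 group had a single library, so only effect sizes are given. No member changed direction in either sum when a library was left out.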

How the data were processed

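The authors deposited raw UMI counts per gene and barcode for 4 whole-ovary libraries, made with Cell Ranger on GRCm38. The file headers and the methods name different Cell Ranger versions, and whether CellBender changed these counts is not given in the sources used here. Cells needed at least 500 genes and more than 1000 UMIs, a mitochondrial share below 10% and a hemoglobin share below 0.1%, and doublets were removed with scanpy 1.11.5. Libraries were normalized with sctransform 0.4.2, integrated and clustered with Seurat 5.3.0 (3000 features, 30 components, resolution 0.8). Clusters were named "-like" from fixed marker lists, with limits on the score set after the clusters were seen. Of 25 clusters, 3 stayed unnamed, and oocyte-like cells were too few. UMIs were summed by class and library and tested with edgeR 4.0.16 (quasi-likelihood, TMM, filterByExpr), with Benjamini-Hochberg adjustment over all genes tested. The same test was also run on simulated data. DESeq2 1.42.0 was an alternative. Floor values cover counting error in the Fosl2F/F libraries only, while the intervals come from edgeR's fit, which includes spread between libraries. P-values rest on 2 libraries a group. The members and lists were chosen with earlier results of these data known. All 10 members are named, with Fosl2, Nnt, the 10 genes most alike in profile and some, though not all, of the nearest tested genes. Listed partners were to be named where they passed, which 0 did, so those named, like the overlapping genes, were chosen after their values were seen. Gene positions are from a GENCODE annotation of GRCm38, matched for 99.6% of gene IDs. Promoter sequences are from RefSeq, GRCm38.p6.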

Additional observations from a re-analysis of the deposited data

Results flagged for a closer look

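The barcodes that the filters removed (2895, 8580, 1894 and 2202 in Fosl2F/F 1, Fosl2F/F 2, Fosl2cKO 1 and Fosl2cKO 2) entered no comparison of the report, although the doublets among them entered the fits with doublets kept. The mean level there in the libraries labelled Fosl2cKO over that in the Fosl2F/F libraries was 2.79-fold for Rab5if, 4.37-fold for Scand1, 3.06-fold for Glrx5, 2.45-fold for Eif3f and 3.67-fold for Pdcd2. It was 2.50-fold for Sap30, 1.84-fold for Rala, 39.0-fold for Gal3st3, 7.41-fold for Taf10 and 3.53-fold for Rab24. Taf10 was at 8.98, 9.17, 17.0 and 117.5 CPM there and Rab24 at 6.21, 6.39, 14.0 and 30.5 CPM, so both ratios rest largely on the second Fosl2cKO library. Gal3st3 had 1, 4, 31 and 59 UMIs in these barcodes, so its ratio rests on few UMIs in the Fosl2F/F libraries. These barcodes hold granulosa cells and doublets too, so they are no independent test of the members.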

How the results depend on the processing

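All members kept their direction in the immune-like and vascular-like sums under every alternative run, but the number past the threshold moved. The DESeq2 counts take in only members that reached the low-count cutoff in both Fosl2F/F libraries. The other counts can also take in members that passed the filter only through the libraries labelled Fosl2cKO, so they are no support for the members. With DESeq2 it was 7 in immune-like (against 0.348% of all genes), 5 in vascular-like (0.225%), 2 in NK or T-like (0.102%) and 3 in epithelial-like cells (0.107%). It was 6 in luteal-like (1.57%), 7 in macrophage-like (0.28%) and 5 in theca-like cells (0.19%). Without a filter on low counts it was 9, 10, 7, 7, 8, 9 and 9 in the same classes, and 9 in pericyte or smooth muscle-like cells, where 0.486% to 2.42% of all genes passed as higher. With library totals in place of TMM it was 3 in epithelial-like and 1 in pericyte or smooth muscle-like cells (0.143% and 0.0245% of all genes), and with a GC trend removed 0 and 0 (0% and 0%). Immune-like cells had 0 at an adjusted p of 0.05 without a fold limit, over 2000 UMIs, and with doublets kept and Leiden clusters. In these settings 0.0174%, 0% and 0.00744% of all genes passed as higher. NK or T-like cells over 2000 UMIs had 2 (0.0388%). The cause of these changes was not tested.

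Leaving out 1 library also moved the number of members past the threshold. Those fits leave 1 group with a single library, so their counts are not given here. Replicate numbers did not pair the libraries (correlation of deviations -0.004 in immune-like and -0.107 in vascular-like cells). With the replicate number as a block, 9 members passed in immune-like, 1 in vascular-like, 6 in epithelial-like, 9 in macrophage-like and 6 in theca-like cells (0.548%, 0.00724%, 0.33%, 1.12% and 0.182% of all genes). These counts too can take in members that passed the low-count filter only through the libraries labelled Fosl2cKO. A crossed pairing, added after the data were seen, gave 0 in vascular-like cells, where 0.0145% of all genes passed as higher. The vascular-like minus immune-like difference, never past the threshold, changed sign for Scand1 with the GC trend removed (-0.14), and with a library left out it ranged over both signs, from -0.14 to 0.17 for Rab5if, -0.04 to 0.09 for Scand1, -0.17 to 0.27 for Glrx5, -0.15 to 0.01 for Eif3f, -0.54 to 0.15 for Pdcd2 and -0.16 to 0.56 for Taf10. The fit over 2000 UMIs was not run in B lymphocyte-like cells, where 1 library had 0 such cells. On simulated data with 2 libraries a group, 31% of 2-fold and 82% of 3-fold changes were recovered in immune-like sums, and 24% and 78% in vascular-like sums. False calls were 8 of 70 and 15 of 179 calls in immune-like sums, and 1 of 49 and 14 of 170 in vascular-like sums.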
